A study of Drosophila melanogaster with 2 samples.

Results

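The Toll receptor family of Drosophila melanogaster is described here through 6 of its genes, Tl, 18w, Toll-6, Toll-7, Tollo and Toll-9. All 6 were found among 13945 protein-coding genes on the chromosome arms. They were chosen by name, with earlier results of these data known. Each was examined for peak summits in its gene body and 5 kb on either side, which is called its window. These windows held 9 of the 4175 peaks in the study's list thresholded for reproducibility.

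The data are peak lists from chromatin immunoprecipitation and sequencing (ChIP-seq) with an antibody against GFP. Chromatin was taken from whole wandering larvae, pooled over both sexes, in the third and last instar. They came from a transgenic line, Dif-GFP, in which Dif carried GFP at its C terminus. The study has 1 group of 2 biological replicates, numbered 3 and 4 in the labels. No treatment or immune challenge is listed for them, and no untagged larvae are among the samples. The labels give neither the promoter of the transgene nor the state of the native Dif gene, and both replicates come from the same line. A control is named in the labels, and its libraries were not analysed here. The chromatin came from all tissues at once, so a site bound strongly in few cells and one bound weakly in many cannot be told apart.

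Toll receptors are transmembrane proteins with leucine-rich repeats outside the cell and a TIR signalling domain inside it. Tl, the founding member, binds the cleaved cytokine Spätzle. Its signal runs through the adaptors Myd88 and tube and the kinase pelle to the inhibitor cactus, whose loss frees the NF-κB factors Dif and Dorsal to enter the nucleus. In larvae and adults this route controls antifungal and Gram-positive defence, and in the embryo it sets the dorsoventral axis. Most other members are better known for work outside immunity, in tissue elongation, cell sorting and the nervous system.

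The values come from 4 peak lists on build dm6. The IDR list is the authors' list thresholded by the irreproducible discovery rate (IDR), which rests on the agreement of ranks between replicates. All 4175 of its summits were also the 4175 strongest of the list called on both replicates pooled. Its members were thus those with the highest pooled signal, and a single peak in it need not have close ranks in both replicates. The pooled list and the list of each replicate hold 30000 peaks and background regions each, so most entries are weak. Signal is the authors' own value for each peak, with an unstated scaling, and ranks count from the strongest peak of a list. Signals ran from 83.9 to 4992 in the IDR list, with a median of 134. Read counts were not used here, so the depth behind each peak is unknown. The 2 replicate lists share 0 identical intervals. Their median widths differ, at 224 bp in replicate 3 and 280 bp in replicate 4, so this says nothing about how far they agree.

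Peaks of tagged Dif were found at 5 of the 6 receptor genes, and at each of the 5 a summit lay within 500 bp of a start site. The exception was Toll-6, which had 0 IDR summits in its window. Among all protein-coding genes, 38.4% had an IDR summit in the window and 15.3% had one within 500 bp of a start site. Long windows hold more summits, so the genes were also read by length. The windows of 18w, Toll-6, Toll-7, Tollo and Toll-9 spanned 14.9 to 17.6 kb, and 4 of these 5 held an IDR summit, against 48.6% of the 2227 genes with windows of 14 to 20 kb. All 4 held 2 summits, and 20.5% of genes in that class held 2 or more. The window of Tl spanned 53.4 kb, and 65.9% of the 663 genes with windows of 40 kb and over held an IDR summit. Of the 5 receptors with 1 annotated start site, 4 had an IDR summit within 500 bp of it, against 9.35% of all genes with 1 start site. These shares are descriptions, with no test between genes.

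**Figure D1:**
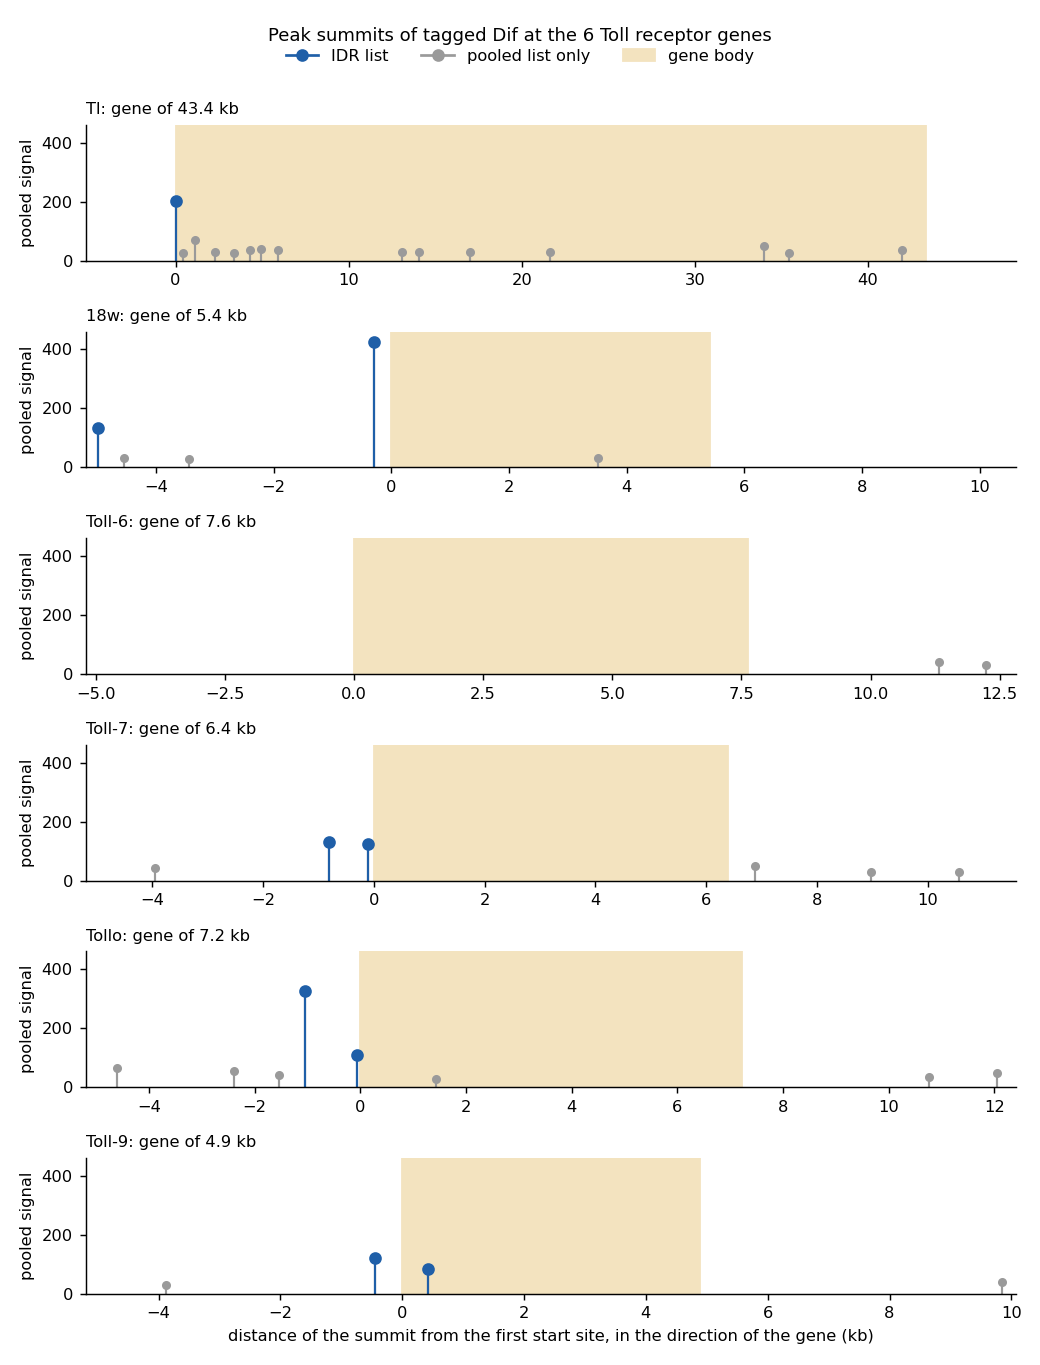
Summits of the pooled list at the 6 Toll receptor genes, by distance from the first start site in kb (x axis) and the authors' pooled signal (y axis). Blue summits are in the IDR list, grey ones in the pooled list only, and the shaded span is the gene body. Of the 9 IDR summits, 7 stand before the first start site, those of Tl at 19 bp and of Toll-9 at 429 bp stand past it in the gene body, and Toll-6 has none.

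The summits gathered upstream of the genes. Of the 9, 7 lay before the first start site in intergenic sequence, 2 lay in a 5′ UTR of Tl or Toll-9, and 0 lay in introns, coding sequence or the 5 kb downstream. Over the whole IDR list, 28.0% of summits were intergenic, 21.1% were in a 5′ UTR and 43.7% were in introns. Of the 6 receptors, 18w, Toll-6, Toll-7 and Tollo are annotated with a single exon and so have no intron to hold a summit. The receptor windows held 2.33 IDR summits per 10 kb upstream, 0.267 in the body and 0 downstream. The same densities over all protein-coding genes were 0.529, 0.320 and 0.402, with a summit counted once for every window it falls in. In the pooled list, where weak regions prevail, the receptor densities were 4.67, 2.40 and 2.67 per 10 kb, against 3.50, 2.49 and 3.19 over all genes.

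**Figure D2:**
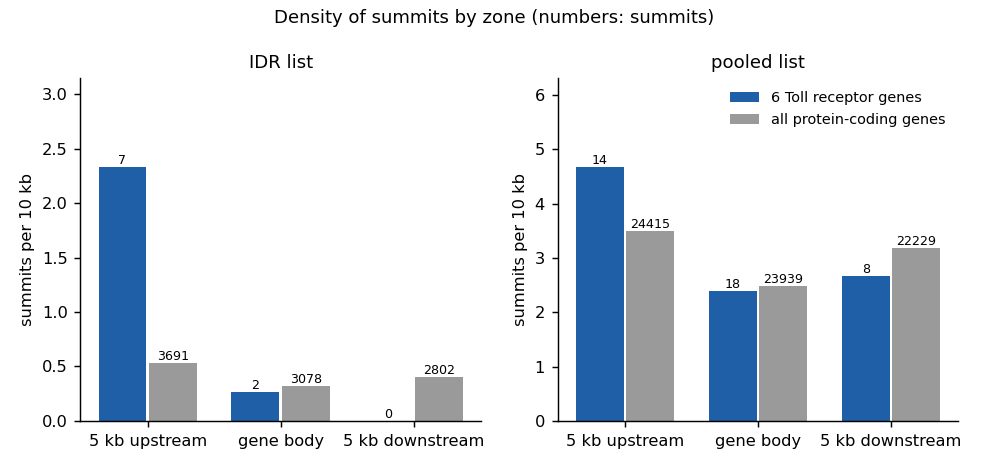
IDR summits (left) and pooled summits (right) per 10 kb in the 5 kb upstream, the gene body and the 5 kb downstream, for the 6 Toll receptor genes (blue) and all protein-coding genes (grey). Numbers above bars count summits. In the IDR list, 7 of the 9 receptor summits are upstream and 0 are downstream.

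Tl (FBgn0262473), the receptor of the Spätzle pathway, lies on 3R at 26799041 to 26842403 on the plus strand, with 3 transcripts from 1 start site. Its IDR peak at 26798938 to 26799181 straddled that start site, with the summit 19 bp into the 5′ UTR. The signal was 202 in the pooled list, 158 in replicate 3 and 61.5 in replicate 4. It ranked 1054 in the pooled list, 1048 in replicate 3 and 1082 in replicate 4. Both replicates thus placed it almost equally, and their summits lay 23 bp apart. The introns of Tl held weaker regions, with pooled signals of 27.3 to 69.2. Of 15 pooled summits in its window, 2 had a q value of 0.01 or less, the promoter peak and one 1128 bp into the gene with a signal of 69.2 at rank 5494. The median gene with a window of 40 kb and over held 11 pooled summits. The part of the peak before the start site is shown because it is the sequence under the promoter peak of the pathway's own receptor. All sequences are read 5′ to 3′ from the RefSeq Release 6 assembly, which is dm6. Capitals mark GAGAG on either strand, the core of GA repeats, and the 3 matches include overlapping ones.
Tl, 3R, plus strand, chr3R:26798938-26799040: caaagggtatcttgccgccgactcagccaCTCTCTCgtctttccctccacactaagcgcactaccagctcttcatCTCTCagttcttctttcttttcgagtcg

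Tollo (FBgn0029114) lies on 3L at 15235619 to 15242832 on the plus strand. It is known for epithelial work in embryonic axis elongation and for restraining antimicrobial peptide expression in the airways. It had 2 IDR peaks 984 bp apart, of which the farther was the stronger. The upstream peak, at 15234494 to 15234617, had its summit 1049 bp before the start site and a pooled signal of 327. Its signal was 195 in replicate 3 and 130 in replicate 4, at ranks 725 and 200. The promoter peak, at 15235432 to 15235675, had its summit 65 bp before the start site and a pooled signal of 108. Its signal was 93.0 in replicate 3 and 35.9 in replicate 4, at ranks 2481 and 2809. Summits of the promoter peak lay 1 bp apart in both replicates, and those of the upstream peak 15 bp apart. Tollo also held the most pooled summits of the receptors with short windows, 8, and 4 of them had a q value of 0.01 or less. In replicate 4 alone, a summit 12150 bp past the start site, downstream of the gene, ranked 3452, and the nearest one in replicate 3, 12103 bp past the start site, ranked 12596.

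Both Tollo sequences are shown on the plus strand. The upstream peak has 0 GAGAG matches and 1 E-box CAGCTG, in capitals. In the promoter peak, capitals mark ACTCA on either strand, which recurs 8 times in the printed 187 bases. ACTCA was picked after the sequences were seen. Within 100 bp of this summit it occurs 9 times, and 1 of 4175 IDR summits, this one, had as many. It occurs at least once at 32.8% of IDR summits and at 6 of the 9 receptor summits.
Tollo upstream peak, chr3L:15234494-15234617: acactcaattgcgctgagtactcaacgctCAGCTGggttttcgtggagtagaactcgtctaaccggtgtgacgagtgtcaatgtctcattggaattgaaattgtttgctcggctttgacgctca
Tollo promoter peak before the start site, chr3L:15235432-15235618: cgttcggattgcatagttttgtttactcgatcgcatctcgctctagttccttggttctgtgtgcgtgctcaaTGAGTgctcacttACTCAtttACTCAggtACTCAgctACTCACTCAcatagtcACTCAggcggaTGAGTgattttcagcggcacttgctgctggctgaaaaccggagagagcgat

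Toll-6 (FBgn0036494), which acts in the nervous system as a receptor for neurotrophin-like ligands of the Spätzle family, is the next member along 3L, at 15336692 to 15344315 on the plus strand. It lies 93859 bp past the end of Tollo. Its nearest IDR summit was 31224 bp before its start site, in the 5′ UTR of CG7255. Its window held 2 pooled summits, with signals of 41.7 and 28.5, at 11333 and 12241 bp past the start site, and neither had a q value of 0.01 or less. Replicate 3 had 1 summit in the window, with a signal of 21.0 at rank 26942, and replicate 4 had 0. Of genes with windows of 14 to 20 kb, 95.3% held a pooled summit, 81.0% held 3 or more, and 96.2% held a summit of replicate 4. The median gene of that class held 6 pooled summits. Toll-6 thus had fewer pooled summits than the median gene of its class, and within its window the summit nearest to its start site, in the pooled list or that of either replicate, lay 11332 bp past it. The 200 bases before its start site are shown for comparison with the bound promoters. They hold 3 GAGAG matches on either strand, in capitals.
Toll-6, 3L, plus strand, chr3L:15336492-15336691: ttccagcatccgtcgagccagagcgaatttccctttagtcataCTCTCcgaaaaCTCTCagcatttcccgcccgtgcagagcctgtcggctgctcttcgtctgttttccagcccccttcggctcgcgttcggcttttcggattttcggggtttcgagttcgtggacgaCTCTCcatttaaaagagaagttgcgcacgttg

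Toll-9 (FBgn0036978), the member whose sequence is closest to the Toll-like receptors of vertebrates, lies on 3L at 20361843 to 20366724 on the minus strand, with start sites at 20366724 and 20365923. It had 2 IDR peaks 871 bp apart. The stronger, at 20367044 to 20367287, had its summit 442 bp before the first start site and a pooled signal of 120. This summit was nearer to another gene: it lay 32 bp from the start of in (inturned), a planar cell polarity gene on the opposite strand. Its signal was 75.0 in replicate 3 and 68.0 in replicate 4, at ranks 3392 and 900. The weaker, at 20366173 to 20366416, lay in the 5′ UTR between both start sites, with a pooled signal of 84.8 and rank 4114 of the 4175 in the list. The nearest summits were 68 bp away in replicate 3, with a signal of 85.2 at rank 2829, and 148 bp away in replicate 4, with a signal of 36.8 at rank 2709. The replicates were thus close in rank but 216 bp apart in position, on either side of the pooled summit. The part of the stronger peak before the start of in is shown on the minus strand because it lies in the shared upstream region of both genes. It has 0 GAGAG matches and 3 of ACTCA, in capitals.
Toll-9 and in, chr3L:20367044-20367197: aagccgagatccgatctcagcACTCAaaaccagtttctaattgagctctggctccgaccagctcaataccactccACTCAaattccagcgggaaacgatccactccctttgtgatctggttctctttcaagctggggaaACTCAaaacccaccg

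18w (18 wheeler, FBgn0287775), which acts in epithelial movements and axis elongation, held the strongest peak of the family. The gene lies on 2R at 20111511 to 20116932 on the plus strand. Its promoter peak, at 20111132 to 20111300, had its summit 290 bp before the start site and a pooled signal of 424, rank 244, within the top 5.84% of the IDR list. Its signal was 300 in replicate 3 and 140 in replicate 4, at ranks 311 and 168, so it stood high in both. It was narrow, at 169 bp, as was the upstream peak of Tollo, at 124 bp. Peaks narrower than the usual 244 bp made up 28.9% of the IDR list and had a median signal of 264, against 114 at 244 bp. A second peak of 18w, at 20106406 to 20106649, had a pooled signal of 133 and lay 4983 bp before the start site, just inside the window. Its signal was 93.0 in replicate 3 and 42.4 in replicate 4, at ranks 2482 and 2127. No other protein-coding start site is nearer to it than that of 18w.

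Toll-7 (FBgn0034476), a neurotrophin-like receptor that also acts in antiviral defence, lies on 2R at 19826578 to 19832973 on the plus strand, 278537 bp before 18w. Its 2 IDR peaks stood 721 bp apart, and both ranked weaker in replicate 4 than in replicate 3. The peak at 19825641 to 19825884 had its summit 815 bp before the start site and a pooled signal of 132. Its signal was 118 in replicate 3 and 17.1 in replicate 4, at ranks 1688 and 8612. The peak at 19826362 to 19826605 had its summit 94 bp before the start site and a pooled signal of 123. Its signal was 108 in replicate 3 and 25.8 in replicate 4, at ranks 1953 and 4675. Both were thus among the 4175 strongest peaks of replicate 3 and outside those of replicate 4, although replicate 4 gave a summit within 43 bp of each. Their places in the IDR list follow their pooled ranks, 2148 and 2402. Of the 9 receptor peaks, 9 were among the 4175 strongest of replicate 3 and 7 among those of replicate 4.

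Set side by side, the promoter peak of 18w and the upstream peak of Tollo stood highest in each of both replicates, and the order below them changed. Tl came next in replicate 3, and the stronger Toll-9 peak came next in replicate 4. The 7 remaining peaks ranked from 1048 to 3392 in replicate 3 and from 900 to 8612 in replicate 4. Summits within 100 bp were found in both replicates for 8 of the 9 receptor peaks, and for 85.4% of all IDR peaks. The exception was the weaker Toll-9 peak. The larger rank was 1.03 times the smaller one at Tl and 5.10 times at the upstream peak of Toll-7, against a median of 1.99 over the 3565 IDR peaks matched in both replicates. By the highest-ranked summit in each window, which need not be the same peak in both replicates, the order in replicate 3 was 18w (311), Tollo (725), Tl (1048), Toll-7 (1688), Toll-9 (2829) and Toll-6 (26942). In replicate 4 it was 18w (168), Tollo (200), Toll-9 (900), Tl (1082) and Toll-7 (4675), with 0 summits at Toll-6. For Toll-9 these ranks belong to the weaker peak in replicate 3 and the stronger one in replicate 4. For Toll-7 they belong to the peak farther from the start site in replicate 3 and the nearer one in replicate 4. Thus 18w stood ahead of Tollo, and Tl ahead of Toll-7, within each replicate, while the place of Toll-9 relative to Tl and Toll-7 changed between them.

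**Figure D3:**
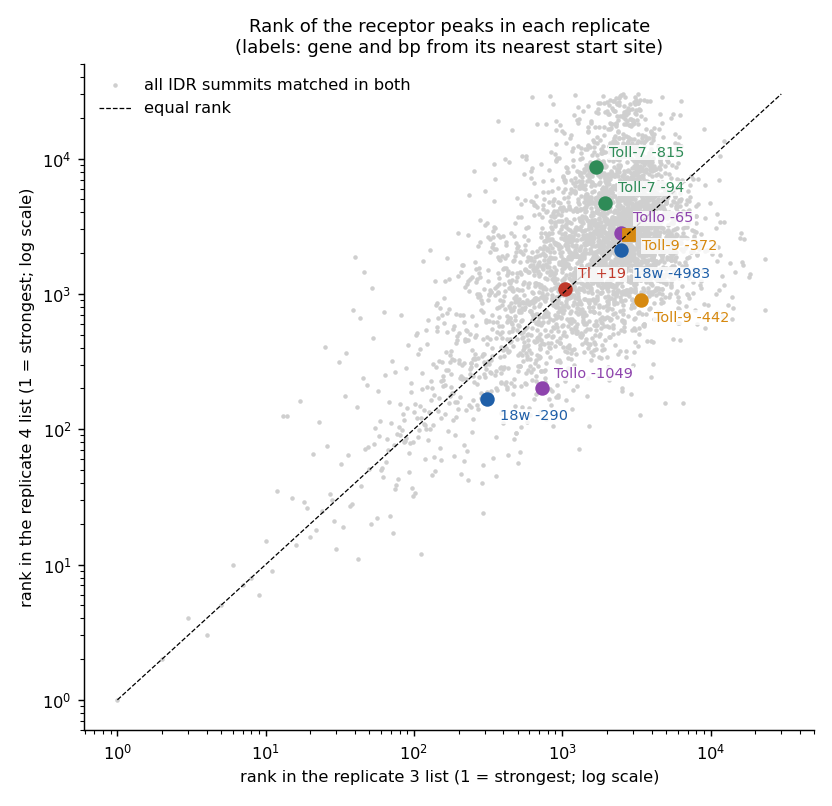
Rank of each receptor IDR peak in the list of replicate 3 (x axis) and of replicate 4 (y axis), both on log scales, over all 3565 IDR summits matched in both (grey). Labels give the gene and the distance in bp from its nearest start site, the square is the Toll-9 peak whose replicate 4 summit lay over 100 bp away, and the dashed line is equal rank. Both Toll-7 peaks lie above the line, at ranks 8612 and 4675 in replicate 4, and the stronger Toll-9 peak lies below it, at rank 900.

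Paired summits at Toll-7, Tollo and Toll-9 were noticed after the values were seen, and the 1000 bp limit was chosen then. The spacings were 721, 984 and 871 bp, against 4693 bp at 18w. Tl had 1 IDR summit and Toll-6 had 0. Within this limit, 6 of the 9 receptor summits had a neighbour, against 31.1% of all IDR summits. Both summits of a pair are counted, and the stronger Toll-9 summit was nearer to the start of in. Because the limit followed the values, this comparison is a description only.

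GA repeats were found at receptor summits in shares near those of all IDR summits. The broad κB consensus was found at none, and it was rare over the whole IDR list. GAGAGAG, the site of GAGA factor, was present on either strand within 100 bp of 4 of the 9 summits, against 34.6% of all IDR summits. These were the summit of Tl, both of 18w and the promoter summit of Tollo. The promoter summit of 18w had 5 overlapping matches, a count reached or passed by 7.57% of IDR summits. The shorter GAGAG, chosen after the sequences were seen, was present at 6 of 9 and at 66.1% of all IDR summits. The broad κB consensus, for the type of site that Dif and Dorsal recognise, was present at 0 of 9 and at 1.99% of all IDR summits. CACACAC was present at both 18w summits (20.1% of all IDR summits), CAGCTG at 1 (13.6%), CATCTG at 2 (7.28%), the Zelda-type CAGGTA at 2 (5.77%) and GATAA at 1 (25.3%). CACGTG, the DRE site TATCGATA and the nuclear receptor core AGGTCA were present at 0, against 3.47%, 1.63% and 3.07%. In promoters, taken as 250 bases before to 50 after the first start site, GAGAGAG was found at Tl, Toll-7 and Tollo, 3 of 6, against 5.87% of all protein-coding genes. GAGAG was found at 5 of 6 promoters, that of Toll-6 included and that of Toll-9 not, against 29.7% of genes, and ACTCA at 3 of 6, against 37.7%. GATAA was found at 0 of 6, against 55.2% of genes. CACACAC (6.92% of genes), CAGCTG (17.7%) and CAGGTA (6.24%) were each found at 1 of 6. At 0 of 6 were CATCTG (11.3%), TATCGATA (9.36%), AGGTCA (5.88%), CACGTG (4.20%) and the broad κB consensus (3.69%). A match describes the sequence and is not shown to be a bound site, and no match says only that these letters are not in the window. All motifs were searched on both strands, and GAGAG overlaps GAGAGAG.

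The other genes of the pathway, listed by role, showed peaks to unequal extents. Of 3 further Toll family receptors, MstProx and Tehao had 0 in their windows, and Toll-4 had 1, with a signal of 117, 5628 bp past its start site. Within 500 bp of a start site, 0 of these 3 had an IDR summit, against 5 of the 6 receptors. Of 6 Spätzle family ligands, 3 had an IDR summit in the window, led by spz (299, summit 102 bp before a start site) and spz6 (137, nearer to the start of CG3880). The neurotrophin-like ligand genes spz5 and NT1, singled out after their values were seen, had 0. Of 10 intracellular components, 8 had one, led by the tagged gene Dif itself (643) and dl (312), which encodes Dorsal. Dif had 6 IDR summits in its window and dl had 5, out of 23 counted gene by gene over the 10 components. Dif and dl both lie on 2L, and whether their windows share summits was not examined. The summit of tub lay 6630 bp from its start site, nearer to that of CG34112. That of Gprk2 lay 53140 bp from its start site, nearer to that of Loxl1. The strongest summit of Pli was nearer to the start of TfIIA-S. Of the 10 components, 6 had a summit within 500 bp of a start site. Of 14 genes of the extracellular recognition and protease cascade, 4 had one, and the strongest was a summit of 214 shared by the proteases Hayan and psh. Of 15 other cell-surface genes with leucine-rich repeats, 9 had one, led by kek5 (281) and trn (247), in windows with a median of 52.5 kb against 16.8 kb for the 6 receptors. All 3 genes studied alongside Toll receptors, Ten-m (519), wek (205, nearer to the start of Gli) and Cirl (147), had one. These shares compare with 38.4% of all protein-coding genes, with no allowance for window length. Median windows were 14.3 kb for the further receptors, 16.4 kb for the ligands and 23.4 kb for the intracellular components. They were 12.0 kb for the extracellular cascade and 20.5 kb for the genes studied alongside Toll receptors. Role and window length thus differ together between these lists.

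**Figure D4:**
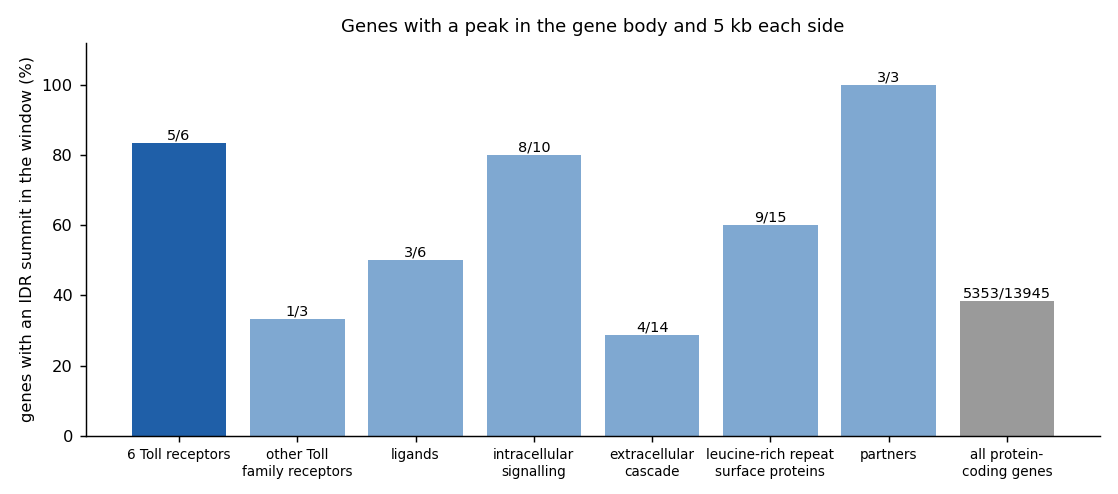
Percent of genes with an IDR summit in the gene body and 5 kb each side (y axis), for the 6 Toll receptors (dark blue), 6 lists of related genes (light blue) and all protein-coding genes (grey). Fractions above bars give genes with a summit over genes in the list. The receptors stand at 5 of 6 and the other Toll family receptors at 1 of 3.

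Genes most like each receptor were sought over 3 measures: IDR summits in the window on a log2(1 + count) scale and the log2 of the strongest signal in each replicate, for 11532 genes with a summit in both. The nearest to Tl were CG13893, MED14 and CG8547, each with 1 IDR summit, at distances of 0.06. For 18w they were the kinase gene for, GEFmeso and Nost, for Toll-7 CG12643, Hk and Ptpmeg2, and for Tollo nub, Culd and Idh. For Toll-9 they were saturn, Spn28Dc and ss. All of these had 2 IDR summits, except the 3 nearest to Tl, and lay at distances up to 0.11. CG13893 and MED14 had the same values as each other, as did CG12643 and Hk, and Culd and Idh. Each of these pairs lies on 1 chromosome arm. Whether the windows of a pair share peaks was not examined, so these genes may not be separate matches.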

How the data were processed

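ChIP-seq peak lists of 2 biological replicates of Dif-GFP larvae were used, with sonicated chromatin. Per the labels, replicate 3 had a size range of 200 to 275 and replicate 4 one of 200 to 300. Per the deposited file listing, the authors called peaks on build dm6 for each replicate and for both pooled, against a control, and selected the IDR list from these 3. Aligner and peak caller: not given in the sources used here. Signal and −log10 q value of each peak are the authors' deposited values, and the summit is their deposited offset in bp from the peak start. The dm3 lists and 0 other columns of per-sample values were left out.

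Genes and start sites came from Ensembl release 115 (BDGP6), and sequence from the RefSeq Release 6 assembly. Start codons read ATG in 99.8% of 30593 cases, and start sites of all 6 receptors were the same in RefSeq. The listed symbol Tollip matched no gene. Summits were counted in windows and matched between replicates within 100 bp with Python 3.11.15 and NumPy 2.4.6, and drawn with Matplotlib 3.10.9. The counting was tested on simulated data. With 1 group, no test between conditions was possible. The members and lists were chosen with earlier results of these data known. All 6 members are named, with genes whose start site is nearest to their summits, the 2 strongest genes of each list and the 3 most like each member. The window classes, the 1000 bp pair distance and the motifs ACTCA and GAGAG were chosen after values were seen. Alternatives covered the flank, the list, each replicate alone, the start site window, the match distance and the motif window.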

Additional observations from a re-analysis of the deposited data

How the results depend on the processing

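Receptors with an IDR summit in the window numbered 5 of 6 with 2 kb each side (26.8% of all protein-coding genes), with 10 kb (53.0%), with the nearest start site only (17.2%) and in the pooled list at q of 0.01 or less (57.9%). In the whole pooled list they numbered 6 (86.8%). They numbered 2 with 0 kb each side (Tl and Toll-9, against 12.1% of all genes) and 3 among the stronger 50% of the IDR list (Tl, 18w and Tollo, against 22.5%). Within 500 bp of a start site the count of 5 became 3 at 200 bp, where 18w and Toll-9 drop out (12.6% of all genes), and 2 among the stronger 50% of the IDR list (Tl and 18w, against 8.42%). With the strongest peaks of 1 replicate alone, both counts ran from 4 to 5, and Toll-7 was lost without replicate 3. The shares of all genes were then 38.4% and 38.7% for the window and 14.8% and 15.6% for the start site, without replicate 3 and without replicate 4. The rank of the highest-ranked summit in the window, which is not the same peak in both replicates for Toll-7 and Toll-9, ran between the replicates from 1048 to 1082 for Tl, 168 to 311 for 18w, 1688 to 4675 for Toll-7, 200 to 725 for Tollo and 900 to 2829 for Toll-9, and was 26942 for Toll-6 without replicate 4, with 0 summits in replicate 4. A single peak ran further, from 1688 to 8612 for the farther Toll-7 peak and from 900 to 3392 for the stronger Toll-9 peak. Summits with GAGAGAG numbered 1 within 50 bp and 2 of 3 among the stronger 50% of the IDR list, and 1 had the broad κB consensus within 250 bp. Shares over all IDR summits at these settings are not given here, so it cannot be said whether these motif counts are unusual. Smaller motif windows and shorter lists hold fewer sites by construction. With no read counts, depth limits cannot be given, and 2 replicates give only a range. No paired analysis was possible because the study has 1 group.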
